A study of Rattus norvegicus with 18 samples.

Results

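The genes described here encode xenobiotic and aldehyde metabolizing enzymes, and their mRNA was followed in Rat1 fibroblasts that lack Myc, with and without human MYC and with siRNA against the aryl hydrocarbon receptor (AHR). They were chosen by symbol, as every aldehyde dehydrogenase (Aldh), glutathione S-transferase (Gst), cytochrome P450 (Cyp), UDP-glucuronosyltransferase (Ugt), sulfotransferase (Sult) and aldo-keto reductase (Akr1) gene in the expression table. Of 103 symbols that matched, 5 were set aside by name (Aldh3a1, Aldh1l2, Cyp1a1, Cyp1b1 and Cyp51), which left 98 of 13188 genes. The 98 members comprise 42 Cyp, 15 Gst, 14 Aldh, 12 Akr1, 9 Ugt and 6 Sult genes. The rule reads symbols only, and it was set with earlier results of these data known.

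Each of the 18 RNA-seq libraries came from HO15.19, a single rat fibroblast line in which both Myc alleles are disrupted, so every group, the controls included, lacks Myc. The cells grew in 10% serum, and the 6 groups held 3 libraries each. They were myc-/- cells, myc-/- cells labelled siCtrl, myc-/- + MYC cells, and myc-/- + MYC cells labelled siCtrl, siAHR-2 or siAHR-5, where human MYC was delivered in a stable line by the retroviral vector pBabe, outside the control of its own promoter. siRNA was used at 40 nM, and transfected cells were harvested after 48 h. Nothing in the labels says that the 3 libraries of a group came from separate cultures, so the p-values below measure the spread between these libraries only.

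The table holds log2 values that were normalized in 2 sets on different scales, and each comparison stayed inside a set. The smaller set (6 libraries) consists of the groups myc-/- siCtrl and myc-/- + MYC, and the larger set (12 libraries) of the other 4 groups. MYC and the siCtrl label cannot be told apart within either set, but the siCtrl label lies on the cells without MYC in the smaller set and on the cells with MYC in the larger set. Library medians lay between 11 and 11.7 on the log2 scale. Sequencing depth is unknown, since the values are not counts. Rat Myc was still listed in every library, at 9.16 to 9.47 in myc-/- siCtrl and 8.01 to 8.08 in myc-/- + MYC in the smaller set, and at 10.82 to 10.94 in myc-/- and 8.16 to 8.27 in myc-/- + MYC siCtrl in the larger set. It was thus higher in cells without MYC in both sets, and this row does not measure the human transgene. Fibroblast markers were present, with 10 of 11 above a mean of 5 in every group (Col1a2 was the exception) and summed levels from 135 to 156. With MYC, 1 of the 11 was higher and 5 were lower in the smaller set, and 7 were lower in the larger set. Some markers of other cell types (5 of each type in the table) were also called with MYC. In the smaller set, 1 epithelial and 1 endothelial marker were higher, and 1 epithelial, 1 endothelial and 1 immune marker were lower. In the larger set, 1 epithelial marker was higher, and 1 endothelial, 1 immune and 1 hepatocyte marker were lower. Of all genes, 26.8% were called in the smaller set (12.5% higher and 14.3% lower). In the larger set 25.5% were called (10.8% higher and 14.7% lower). The marker lists are short, so their counts are a description only and are not read as a change of cell type. The part of these marker differences in the enzyme results was not tested. In such bulk samples, fewer cells of a kind and less RNA per cell cannot be told apart.

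Foreign compounds and reactive metabolites are handled in stages. Cyp enzymes add oxygen to drugs, sterols, retinoids and fatty acids, Aldh enzymes oxidize aldehydes to acids, and Akr1 enzymes reduce aldehydes, ketones and steroids. Gst, Ugt and Sult enzymes then attach glutathione, glucuronic acid or sulfate, which makes the products easier to export. Many of these genes are at their highest in liver, and AHR, a ligand-activated transcription factor, is a textbook inducer of several of them. Fibroblasts also handle endogenous aldehydes, retinoic acid and lipid peroxidation products.

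Levels differed widely among the members. In 32 of the 98 members (32.7%) the mean was under 5 log2 units in both sets, against 15.7% of all genes. A mean of 10 or more was reached by 28 members (28.6%) in the smaller set and 24 (24.5%) in the larger set, against 60.3% and 62.6% of all genes. The low members were 16 of 42 Cyp, 5 of 9 Ugt, 4 of 6 Sult, 3 of 15 Gst, 3 of 12 Akr1 and 1 of 14 Aldh genes. Highest in their families in both sets were Akr1a1, an aldehyde reductase (mean 15.7 in the smaller and 16.4 in the larger set), and Aldh7a1 of lysine breakdown (14.5 and 15.2). Gstp1 led the Gst genes in the smaller set (14.8, with Gsto1 at 13.5) and Gsto1, which also reduces dehydroascorbate, in the larger set (14.3, with Gstp1 at 13.6). Among Cyp genes the first was Cyp26b1 in the smaller set (13.2, with the orphan P450 Cyp20a1 at 12.5) and Cyp20a1 in the larger set (13.5, with Cyp26b1 at 12.9). The Ugt and Sult families were lower, led in both sets by Ugt1a6 (9.99 and 9.43) and Sult1a1 (6.45 and 6.98). These are log2 values not divided by gene length, so the order between genes is approximate. In 38 members of the larger set and 13 of the smaller set, at least 3 libraries sat within 0.01 of the gene's lowest value in that set, as Cyp4b1 did at 3.43 in 10 of 12 libraries. For such a gene the size of a difference depends on where that lowest value lies, so differences below are log2 values and not bounds on a fold.

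The sequences that frame the results are the promoters of 5 members. They come from the 300 bases that RefSeq gives around each start (250 before and 50 after, build GRCr8), printed 5′ to 3′ on the gene's strand. Ugt1a6 is shown because it fell with MYC and again with siAHR-2. Cyp26b1 is shown because it fell with MYC and was higher with each AHR siRNA, though below the fold cutoff. The Akr1c genes are shown because neighbours moved in opposite directions. Capitals mark the AHR core GCGTG (or its reverse complement CACGC) and an antioxidant element TGACNNNGC. The E-box CACGTG was also searched on both strands, and TGACNNNGC can share its last bases with GCGTG. The Ugt1a6 promoter lies on the plus strand at chr9:96194768-96195067, with the AHR core at position -133. The Cyp26b1 promoter lies on the minus strand at chr4:118616127-118616426, with the AHR core at position -183 and an antioxidant element at -146. Akr1c12 (minus strand, chr17:70971363-70971662) carries the core just after its start, and Akr1c13 (plus strand, chr17:70894386-70894685) and Akr1c14 (minus strand, chr17:71083135-71083434) hold none of these letters in the window.
Ugt1a6: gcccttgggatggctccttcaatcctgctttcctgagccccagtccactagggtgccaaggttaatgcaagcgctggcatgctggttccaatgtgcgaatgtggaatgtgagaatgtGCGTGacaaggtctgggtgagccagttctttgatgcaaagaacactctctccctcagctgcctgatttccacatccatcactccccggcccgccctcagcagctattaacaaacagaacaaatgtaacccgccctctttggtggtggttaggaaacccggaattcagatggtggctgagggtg
Cyp26b1: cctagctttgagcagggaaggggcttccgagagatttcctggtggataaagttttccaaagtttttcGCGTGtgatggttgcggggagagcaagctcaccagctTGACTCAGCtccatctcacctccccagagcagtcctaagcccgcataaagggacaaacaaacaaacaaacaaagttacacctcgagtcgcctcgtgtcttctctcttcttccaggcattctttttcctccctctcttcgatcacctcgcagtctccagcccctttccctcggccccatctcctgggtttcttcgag
Akr1c12: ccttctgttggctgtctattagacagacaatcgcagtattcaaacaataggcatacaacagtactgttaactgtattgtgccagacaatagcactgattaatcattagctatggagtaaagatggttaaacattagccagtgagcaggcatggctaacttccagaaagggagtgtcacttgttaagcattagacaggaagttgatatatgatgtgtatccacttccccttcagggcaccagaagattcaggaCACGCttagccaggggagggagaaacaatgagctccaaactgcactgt
Akr1c13: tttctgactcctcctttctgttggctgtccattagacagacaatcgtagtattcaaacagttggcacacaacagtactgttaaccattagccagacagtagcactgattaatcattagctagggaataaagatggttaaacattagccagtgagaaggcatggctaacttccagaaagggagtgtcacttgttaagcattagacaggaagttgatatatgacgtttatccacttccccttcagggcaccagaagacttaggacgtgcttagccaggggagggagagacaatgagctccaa
Akr1c14: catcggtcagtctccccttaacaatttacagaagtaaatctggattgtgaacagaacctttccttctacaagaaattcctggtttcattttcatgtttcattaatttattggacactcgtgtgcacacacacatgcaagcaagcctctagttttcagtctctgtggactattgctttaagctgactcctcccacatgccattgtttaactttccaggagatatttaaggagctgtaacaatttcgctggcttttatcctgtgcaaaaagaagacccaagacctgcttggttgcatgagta

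A promoter was listed for 82 of the 98 members. GCGTG on either strand was found in 29 of the 82 (35.4%), against 29.7% of all 33469 promoters of the same length. CACGTG was found in 3 (3.66%, against 6.42%) and TGACNNNGC in 11 (13.4%, against 12.1%). Each member was counted with a single promoter. The comparison took every listed promoter, with no such limit per gene and none to the genes tested here. These shares therefore rest on unlike lists. The Akr1c12 and Akr1c13 windows were identical at 85.9% of aligned bases, and both genes fell with MYC. Their neighbour Akr1c12l1 had a window identical at 82% to that of Akr1c12 and at 79.9% to that of Akr1c13, and was called in neither set (log2FC -0.40 and -0.39). The Cyp2b1 and Cyp2b2 windows were the most alike, at 86.8%, and of these genes Cyp2b1 was called, in the larger set. A match is a description of letters and was not tied to binding.

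To ask which enzymes differed with MYC, each set was fitted over all 13188 genes with limma, and a member was called when it differed by at least 1.5-fold, taken on the log2 scale, at an adjusted p of 0.01 or less. In the smaller set, 38 members were called, 16 higher and 22 lower with MYC, or 38.8% of members against 26.8% of all genes (12.5% higher and 14.3% lower). The larger set had 27 called members, 12 higher and 15 lower, or 27.6% against 25.5% of all genes (10.8% higher and 14.7% lower). The second share is near the background. With no fold cutoff and an adjusted p of 0.05 or less, the shares were 74.5% of members against 76.2% of all genes in the smaller set and 54.1% against 64.7% in the larger set. After quantile normalization the split in the larger set became 17 higher and 14 lower, and that of all genes went from 1425 higher and 1936 lower to 1796 and 1660. In the smaller set the same scaling took all genes from 1653 higher and 1884 lower to 1799 and 1684. Groups did not overlap for 79 members in the smaller set (80.6%, against 78.8% of genes) and 64 in the larger set (65.3%, against 70.5%). The median log2FC of the members was -0.02 in the smaller set and -0.03 in the larger set, beside -0.0038 and -0.00014 for all genes, and members moved in both directions.

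Across both sets, 10 members were higher in each (10.2%, against 6.87% of all genes), 11 were lower in each (11.2%, against 8.91%), and 0 were called in opposite directions (0.341% of all genes). A further 17 were called in the smaller set alone (17.3%, against 10.7%) and 6 in the larger set alone (6.12%, against 9.36%), and 54 in neither. The sign of the log2FC was the same in both sets for 81 of 98 (82.7%, against 76.4%). Calls by family are given as counts, and families were not tested against each other. Gst genes called in the smaller set were 4 higher and 1 lower, Cyp genes 5 and 8, Aldh genes 3 and 5, Akr1 genes 3 and 4, Ugt genes 0 and 4, and Sult genes 1 and 0. In the larger set the counts were 3 higher and 2 lower for Gst, 4 and 6 for Cyp, 3 and 3 for Aldh, 2 and 2 for Akr1, 0 and 2 for Ugt, and 0 and 0 for Sult. No Ugt gene had a log2FC above 0 in either set. However, 5 of the 9 were low in both sets, and the value nearest 0 was -0.00012 in the larger set, so these signs do not show a shared direction.

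**Figure D1:**
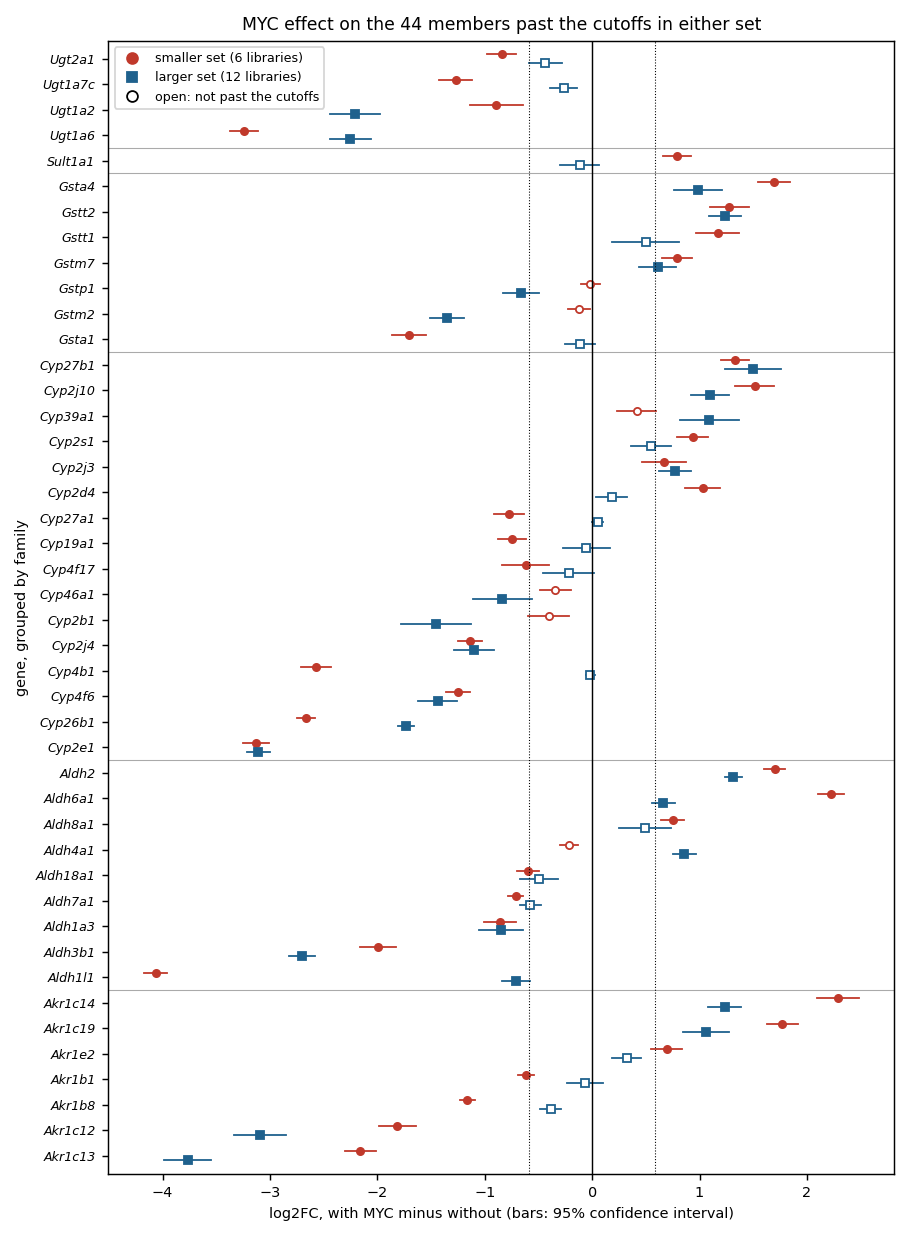
The log2FC (with MYC minus without, x axis) of the 44 members called in either set, grouped by family on the y axis, with 95% confidence intervals, circles for the smaller set, squares for the larger set, open symbols where the cutoffs were not met and dotted lines at a size of 1.5-fold. Among these, 10 lie right of the cutoffs in both sets and 11 left in both, and Aldh1l1 and Cyp4b1 show the widest gaps between sets.

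Aldehyde dehydrogenases held both the most abundant enzyme to rise and the largest fall. Aldh2, the mitochondrial enzyme that clears acetaldehyde, was at 13.65, 13.63 and 13.62 in myc-/- siCtrl and at 15.43, 15.34 and 15.22 in myc-/- + MYC (log2FC 1.70, SE 0.0458, adjusted p = 4.7e-11). Without MYC it was at 13.70, 13.78 and 13.73 in the larger set, and with MYC at 15.06, 15.07 and 15.03 (log2FC 1.32, SE 0.0308, adjusted p = 8.12e-07). The groups were far apart in both sets, and replicates of a group lay close together. Aldh6a1, the methylmalonate semialdehyde dehydrogenase of valine breakdown, rose from 10.08, 10.02 and 10.04 to 12.38, 12.28 and 12.16 in the smaller set (log2FC 2.22, adjusted p = 2.46e-11). The rise in the larger set was from 11.95, 11.86 and 11.88 to 12.62, 12.54 and 12.51 (log2FC 0.66, adjusted p = 4.1e-05). Direction was shared and size was not. The difference between the effects was -1.56 (adjusted p = 3.46e-10).

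Aldh1l1, the cytosolic formyltetrahydrofolate dehydrogenase of folate metabolism, had the largest fall of any member. It was at 12.03, 12.08 and 12.09 in myc-/- siCtrl and at 7.95, 8.03 and 8.02 in myc-/- + MYC (log2FC -4.06, SE 0.0494, adjusted p = 1.64e-13). In the larger set it was at 7.35, 7.27 and 7.36 in myc-/- cells, and at 6.62, 6.68 and 6.55 with MYC (log2FC -0.71, adjusted p = 7.03e-05). The groups did not overlap in either set, and the effects differed by 3.35. After quantile normalization the larger set value was -0.49 and did not pass.

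Aldh3b1, which oxidizes lipid-derived aldehydes, fell in both sets. Levels were 10.67, 10.82 and 10.81 against 8.92, 8.75 and 8.65 with MYC in the smaller set (log2FC -1.99, adjusted p = 6.85e-10), and 10.88, 10.91 and 10.92 against 8.14, 8.22 and 8.24 in the larger set (log2FC -2.70, adjusted p = 3.87e-07). Aldh1a3, which makes retinoic acid from retinal, fell by 0.86 and by 0.85 in the smaller and larger sets (adjusted p = 3.07e-07 and 0.000231). Aldh1a3 sat within 0.01 of 5.72, its lowest value in the larger set, in 7 of those libraries. Aldh4a1, the pyrroline carboxylate dehydrogenase of proline breakdown, was higher with MYC only in the larger set, at 13.35, 13.38 and 13.25 against 12.46, 12.43 and 12.51 (log2FC 0.86, adjusted p = 1.36e-05) (-0.21 in the smaller set). The difference between these effects was 1.07 (adjusted p = 2.03e-09).

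Other Aldh genes met the cutoffs in the smaller set alone. Aldh7a1 fell by 0.71 there, from 14.84, 14.86 and 14.88 to 14.21, 14.13 and 14.11, and its log2FC of -0.58 in the larger set lay just short of the fold cutoff, which it passed at -0.59 to -0.60 without replicate 1 or 3 of myc-/- or replicate 3 of myc-/- + MYC siCtrl. Quantile normalization took its value in the smaller set to -0.48. Aldh18a1, the synthase that starts proline synthesis, fell by 0.60 (-0.50 in the larger set), and it missed the fold cutoff at -0.58, -0.57 and -0.58 without replicate 1 or 2 of myc-/- + MYC or replicate 3 of myc-/- siCtrl. Aldh8a1, of the kynurenine pathway, rose by 0.75 (0.49 in the larger set, and 0.67 there after quantile normalization, past the cutoffs). These 3 genes had like values in both sets, and none was called for a difference between them. Aldh9a1, of carnitine synthesis, stood at -0.48 and 0.11, and the difference of 0.59 met the cutoffs. It no longer did so after quantile normalization or without any one of several libraries.

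**Figure D2:**
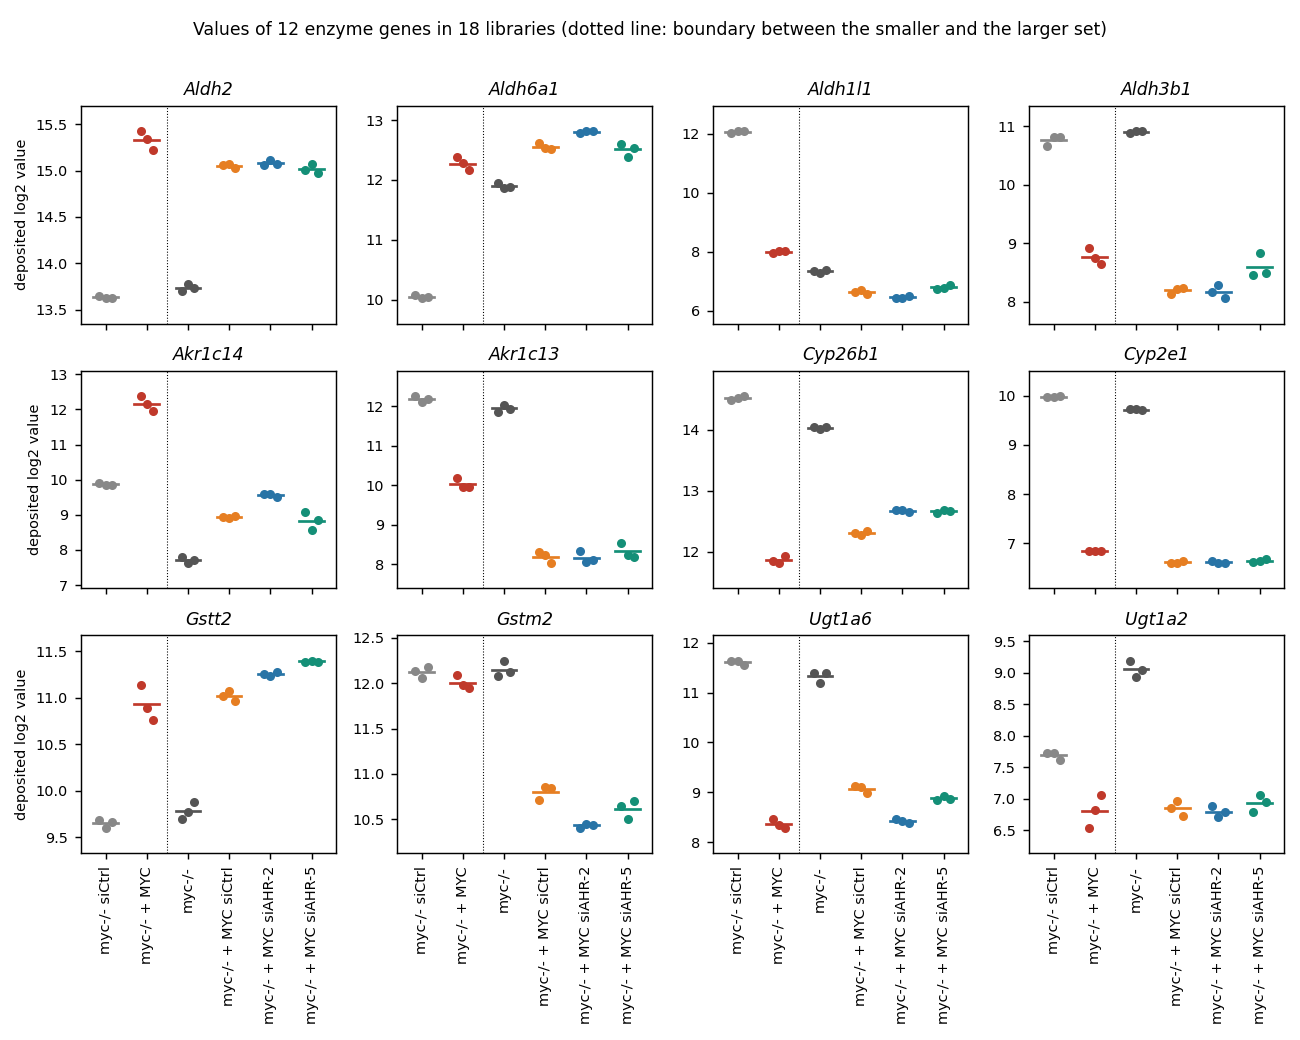
Deposited log2 value (y axis) of 12 members in each library, by group along the x axis, with lines at group means and a dotted line between the smaller set and the larger set. Aldh2 and Gstt2 are higher with MYC in both sets, Akr1c13, Cyp26b1, Cyp2e1 and Ugt1a6 are lower in both, and Aldh1l1 shows its wide gap between groups in the smaller set.

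Aldo-keto reductases showed opposite movements inside 1 gene cluster. In chromosome order the Akr1c cluster reads Akr1e2, Akr1c12l1, Akr1c13, Akr1c19, Akr1c12, Akr1c3 and Akr1c14. Akr1c13 fell from 12.27, 12.12 and 12.19 to 10.18, 9.96 and 9.95 in the smaller set (log2FC -2.16, adjusted p = 1.07e-10). The larger set showed a fall from 11.87, 12.04 and 11.93 to 8.30, 8.22 and 8.02 (log2FC -3.77, adjusted p = 8.41e-07), the largest fall of a member in that set. Akr1c12 fell with it, by 1.81 and 3.09 in the smaller and larger sets, from 9.95, 9.77 and 9.94 to 8.22, 8.02 and 7.98 and from 9.97, 10.26 and 10.01 to 7.03, 6.88 and 7.06. Their promoters are the similar pair printed above, and reads from such close relatives could be shared between their rows.

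Akr1c14, the hydroxysteroid dehydrogenase of the cluster that reduces steroid ketones, went the other way. It rose from 9.92, 9.86 and 9.84 to 12.39, 12.15 and 11.95 in the smaller set (log2FC 2.29, SE 0.088, adjusted p = 8.19e-10), the largest rise of a member. Its rise in the larger set was from 7.79, 7.62 and 7.72 to 8.94, 8.92 and 8.98 (log2FC 1.23, SE 0.0615, adjusted p = 1.34e-05). Akr1c19, which lies between Akr1c13 and Akr1c12, rose by 1.77 (9.33, 9.38 and 9.29 to 11.25, 11.05 and 11.02) and by 1.06 (9.28, 9.56 and 9.33 to 10.47, 10.37 and 10.50). A member that rose thus sat between 2 that fell, in both sets. The differences between sets were -1.61 for Akr1c13, -1.28 for Akr1c12, -1.05 for Akr1c14 and -0.71 for Akr1c19, each past the cutoffs.

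The first gene of the cluster, Akr1e2 of anhydrofructose reduction, rose by 0.69 in the smaller set (0.32 in the larger set). Akr1b8, a rodent aldehyde reductase, fell by 1.16 in the smaller set, from 13.76, 13.72 and 13.75 to 12.57, 12.56 and 12.63 (-0.38 in the larger set). Akr1b1, the aldose reductase of the polyol pathway, fell by 0.62 in the smaller set, and in the larger set its log2FC was -0.07 (95% confidence interval -0.24 to 0.10). Quantile normalization brought the smaller set value to -0.41, short of the cutoff. Akr1a1, the most abundant member, was at 15.67 to 15.78 without MYC and at 15.73 to 15.74 with it in the smaller set, a log2FC of -0.00 with an interval of -0.07 to 0.07.

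**Figure D3:**
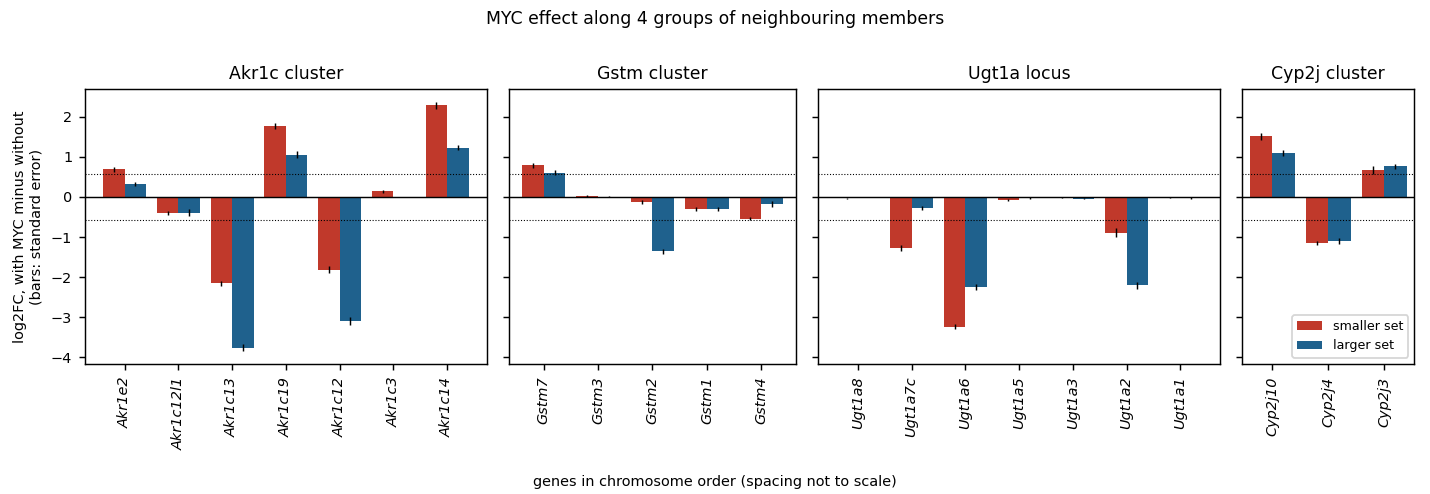
The log2FC with MYC (y axis; bars show the standard error) for members that neighbour each other, in chromosome order along the x axis and not to scale, red for the smaller set and blue for the larger set, with dotted lines at the fold cutoff. Akr1c19 at 1.77 and 1.06 stands between Akr1c13 and Akr1c12, which are below -1.8 in both sets, and Cyp2j4 falls between Cyp2j10 and Cyp2j3, which rise.

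Among cytochrome P450 genes, the solvent enzyme Cyp2e1 and the retinoid enzyme Cyp26b1 fell furthest in both sets. Cyp26b1, which clears retinoic acid, was at 14.49, 14.52 and 14.56 without MYC and at 11.85, 11.81 and 11.93 with it in the smaller set (log2FC -2.66, SE 0.037, adjusted p = 3.75e-13). Without MYC it was at 14.04, 14.01 and 14.05 in the larger set, and with MYC at 12.30, 12.27 and 12.34 (log2FC -1.73, SE 0.03, adjusted p = 3.04e-07). It was the most abundant Cyp member to be called, and the gap of 0.93 between effects also passed. Cyp2e1, which oxidizes ethanol and small solvents, fell from 9.98, 9.97 and 10.00 to 6.84, 6.85 and 6.85 and from 9.73, 9.73 and 9.70 to 6.60, 6.60 and 6.63. Its log2FC was -3.13 and -3.11 in the smaller and larger sets, and the difference of 0.02 had an interval of -0.14 to 0.18. Among the 12, 3 libraries lay within 0.01 of its lowest value, 6.59. Every library with MYC in that set, siAHR libraries included, lay between 6.59 and 6.67. In the smaller set the lowest value was 6.84, beside 6.84 to 6.85 with MYC. The size of both falls, and their likeness, may therefore depend on where the lowest value lies.

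The Cyp2j epoxygenases, which act on arachidonic acid, also divided by position. Cyp2j10 rose by 1.51 and 1.10 in the smaller and larger sets, Cyp2j3 rose by 0.67 and 0.77, and Cyp2j4, which lies between them, fell by 1.14 and 1.10. Cyp2j4 levels were 7.48, 7.47 and 7.44 against 6.32, 6.33 and 6.33, and 6.95, 6.96 and 7.19 against 5.90, 5.95 and 5.96. Its MYC values sat at or near the gene's lowest value in both sets. Cyp2j3 missed the fold cutoff without replicate 1 of myc-/- + MYC (0.58). None of the 3 differed between sets by the cutoffs.

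Sterol and vitamin D enzymes had mixed directions. Cyp27b1, which activates vitamin D, rose from 6.61, 6.63 and 6.52 to 7.96, 7.92 and 7.87 and from 7.90, 7.99 and 7.61 to 9.27, 9.35 and 9.37 (log2FC 1.33 and 1.499, adjusted p = 2.65e-09 and 5.79e-05). Cyp27a1, a mitochondrial sterol hydroxylase, fell by 0.78 in the smaller set and was near 4.2 to 4.3 in both groups of the larger set (log2FC 0.05). Cyp39a1, an oxysterol hydroxylase, rose by 1.09 in the larger set (0.41 in the smaller set), and Cyp46a1, the cholesterol hydroxylase best known from brain, fell by 0.83 there (-0.34 in the smaller set). Cyp19a1, the aromatase that makes estrogens, fell by 0.75 in the smaller set (-0.06 in the larger set). Of these, Cyp27a1, Cyp39a1 and Cyp19a1 differed between sets (0.83, 0.68 and 0.69).

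The remaining Cyp calls were in fatty acid and drug oxidizing subfamilies. Cyp4f6 fell in both sets (-1.25 and -1.44), and Cyp4f17, of the same subfamily of fatty acid hydroxylases, fell by 0.62 in the smaller set (-0.22 in the larger set) but missed the cutoff at -0.50 without replicate 3 of myc-/- + MYC. Cyp4b1, which activates several lung toxins, fell from 9.20, 9.12 and 9.01 to 6.53, 6.54 and 6.54 in the smaller set (log2FC -2.57). In the larger set it was at 3.43 to 3.48 in every library, so a difference was not detectable there. Cyp2b1, the classic phenobarbital-inducible P450, fell from 9.03, 9.05 and 8.63 to 7.48, 7.53 and 7.32 in the larger set (log2FC -1.46), with -0.41 in the smaller set. Cyp2s1 rose by 0.94 and Cyp2d4 by 1.03 in the smaller set, beside 0.55 and 0.18 in the larger set, where Cyp2s1 passed after quantile normalization (0.74), after median centring (0.59) and without replicate 3 of myc-/- (0.62). Cyp3a9, a steroid hydroxylase, was called in neither set (-0.54 and 0.18, and -0.61 in the smaller set without replicate 2 of myc-/- siCtrl) but its effects differed by 0.72. Cyp20a1, one of the 2 most abundant P450 members in each set, had a log2FC of -0.12 and -0.10.

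Glutathione S-transferases had 4 called rises and 1 called fall in the smaller set and 3 and 2 in the larger set. These were 33.3% of the family in each set, against 26.8% and 25.5% of all genes. A log2FC above 0 was found in 7 of the 15 genes in the smaller set and 8 in the larger set. Gstt2, of the theta class, rose from 9.69, 9.60 and 9.67 to 11.14, 10.89 and 10.76 and from 9.70, 9.77 and 9.88 to 11.02, 11.07 and 10.97 (log2FC 1.28 and 1.24, adjusted p = 6.17e-08 and 1.28e-05). Gsta4, which conjugates the lipid peroxidation product hydroxynonenal, rose from 9.55, 9.56 and 9.31 to 11.21, 11.16 and 11.14 and from 8.82, 9.07 and 8.75 to 9.84, 9.89 and 9.86 (log2FC 1.70 and 0.98). Gstm7, of the mu class, rose by 0.79 and 0.61, and the second value missed the cutoff without replicate 3 of myc-/- (0.57) or replicate 1 of myc-/- + MYC siCtrl (0.56). Gstt1 rose by 1.17 in the smaller set (0.50 in the larger set), where it passed after quantile normalization (0.62).

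The falls in this family differed between sets. Gsta1 fell from 9.89, 9.87 and 9.78 to 8.0, 8.17 and 8.26 in the smaller set (log2FC -1.70), and in the larger set it was between 5.39 and 5.63 in both groups (log2FC -0.11). Gstm2 was at 12.14, 12.06 and 12.18 against 12.09, 11.98 and 11.95 in the smaller set, where the groups overlapped (log2FC -0.12). It fell from 12.08, 12.25 and 12.12 to 10.71, 10.85 and 10.84 in the larger set (log2FC -1.35, adjusted p = 1.07e-05). Gstp1, the pi-class enzyme and one of the 2 most abundant of the family, followed the same pattern, with -0.02 in the smaller set and a fall of 0.66 in the larger set, from 13.94, 14.16 and 13.92 to 13.35, 13.36 and 13.31. The differences between sets were 1.59 for Gsta1, -1.23 for Gstm2 and -0.65 for Gstp1. Gsto1 had a log2FC of -0.55 and -0.10, and it passed the fold cutoff in the smaller set after median centring (-0.59).

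Among the 9 Ugt genes, 4 were called in the smaller set and 2 in the larger set, all lower with MYC. Of all genes, 14.3% and 14.7% were called lower, and families were not tested against each other. Ugt1a6, which glucuronidates small planar phenols and is a known AHR target, was at 11.63, 11.64 and 11.56 in myc-/- siCtrl and at 8.47, 8.35 and 8.28 in myc-/- + MYC (log2FC -3.24, SE 0.0595, adjusted p = 2.61e-12). Without MYC it was at 11.40, 11.19 and 11.39 in the larger set, and with MYC at 9.13, 9.10 and 8.99 (log2FC -2.25, SE 0.0769, adjusted p = 3.19e-06). Its fall was the second largest of the members in the smaller set, after that of Aldh1l1. Ugt1a2 fell from 7.73, 7.73 and 7.62 to 6.53, 6.82 and 7.06 and from 9.19, 8.93 and 9.04 to 6.85, 6.96 and 6.73 (log2FC -0.89 and -2.21). Ugt1a7c fell by 1.27 in the smaller set and had -0.27 in the larger set, where it sat at its lowest value of 4.61 in 7 of 12 libraries, and Ugt2a1, of the olfactory subfamily, fell by 0.84 (-0.44 in the larger set). The Ugt1a genes share their later exons and differ in the first, so how reads were divided among them is uncertain. Ugt1a8, Ugt1a5, Ugt1a3 and Ugt1a1, of the same locus, were within 0.01 of their lowest value in 9 or 10 of the 12 libraries.

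Sulfotransferases were low in these cells. Sult1a1, a phenol sulfotransferase, rose from 6.14, 6.04 and 6.00 to 6.86, 6.91 and 6.78 in the smaller set (log2FC 0.79, adjusted p = 2.74e-07). In the larger set it was at 7.07, 6.89 and 6.97 without and at 6.77, 6.96 and 6.85 with MYC, and the groups overlapped (log2FC -0.12). The difference of -0.91 passed the cutoffs. Sult6b1, at a mean of 4.48 in the smaller and 5.04 in the larger set, had a log2FC of 0.24 and 0.11 and was not called.

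**Figure D4:**
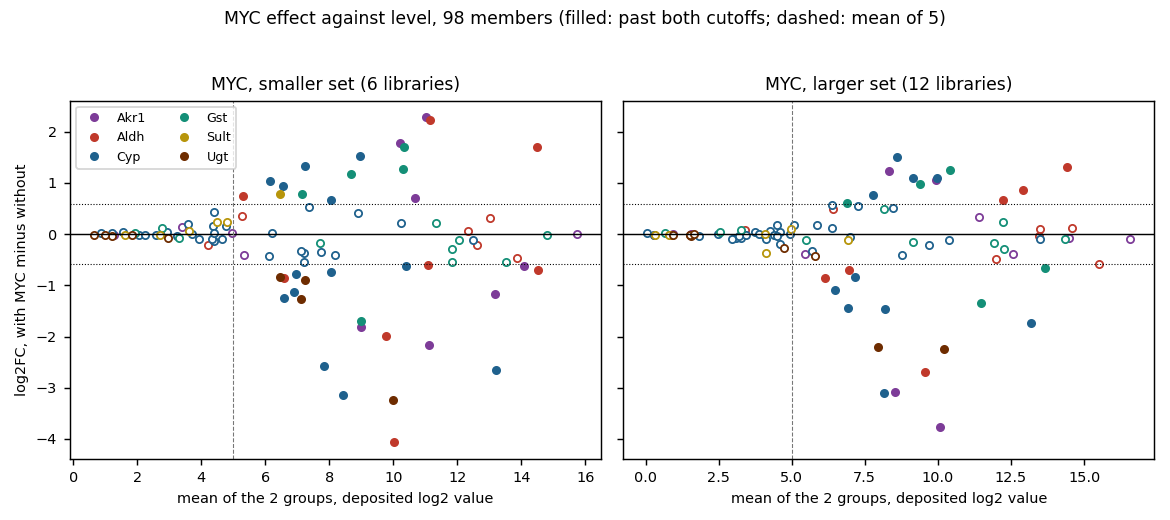
The log2FC with MYC (y axis) against the mean log2 value of both groups (x axis) for all 98 members, coloured by family, filled where called, in the smaller set (left) and the larger set (right), with a dashed line at a mean of 5. Called members lie right of the dashed line, and the 32 members low in both sets have a log2FC of at most 0.36 in size.

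The calls were thus spread over levels above 5, with 15 of the 38 called in the smaller set and 9 of the 27 called in the larger set at a mean of 10 or more in that set, beside 2257 of 3537 and 2470 of 3361 called genes overall. Among members, 27 of 98 (27.6%) were called for the difference of the MYC effects, 13 with a higher and 14 with a lower value in the larger set, against 16.5% of all genes (6.79% higher and 9.67% lower). By family these were 8 Cyp, 5 Akr1, 5 Aldh, 5 Gst, 3 Ugt and 1 Sult genes. Cells without MYC carried the siCtrl label in the smaller set and cells with MYC carried it in the larger set, and this cannot be told apart from the set itself.

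To ask whether AHR bears on these enzymes, the siAHR-2 and siAHR-5 libraries were each compared with myc-/- + MYC siCtrl. Both comparisons share those 3 control libraries. Ahr was at 13.34, 13.26 and 13.22 in siCtrl, at 11.97, 11.97 and 12.03 with siAHR-2 and at 11.95, 11.76 and 11.94 with siAHR-5, a fall of 1.29 and of 1.39. Of the AHR targets set aside by name, Aldh3a1 and Cyp1b1 fell by 1.42 and 1.01 with siAHR-2 and by 1.62 and 0.99 with siAHR-5. Cyp1a1, low at 3.70 to 3.90 in siCtrl, had a log2FC of -0.19 and -0.21 and was not called. The lower Ahr value was seen in all 6 siAHR libraries.

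With siAHR-2, 2 members were called (2.04%, against 0.470% of all genes, 0.159% higher and 0.311% lower). Ugt1a6 fell from 9.13, 9.10 and 8.99 to 8.47, 8.42 and 8.39 (log2FC -0.65, 95% confidence interval -0.78 to -0.51, adjusted p = 0.00126). Akr1c14 rose from 8.94, 8.92 and 8.98 to 9.58, 9.60 and 9.52 (log2FC 0.62, interval 0.52 to 0.72, adjusted p = 0.000668). For both genes the groups were well apart. Neither call held under all settings, since Akr1c14 missed the fold cutoff after quantile normalization (0.53) and Ugt1a6 was at an adjusted p of 0.01001, just over the cutoff, without siAHR-2 replicate 2. With the replicate number as a block, limma called 0 genes for siAHR-2, and the adjusted p was 0.0148 for Akr1c14 and 0.0139 for Ugt1a6.

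With siAHR-5, limma called 0 of the 98 members, against 2.32% of all genes, while 34 members (34.7%, against 47.8% of all genes) had an unadjusted p under 0.05. An adjusted p of 0.05 or less was reached by 27 (27.6%, against 39.2%), 19 of them higher and 8 lower, beside 2786 higher and 2383 lower of all genes. Such splits depend on the scaling. Past both cutoffs, all genes with siAHR-5 were 194 higher and 112 lower, 127 and 126 after quantile normalization, and 140 and 165 after median centring. Ugt1a6 was at 8.84, 8.92 and 8.87 (log2FC -0.20, interval -0.33 to -0.06, adjusted p = 0.0338). Akr1c14 was at 9.08, 8.57 and 8.84, on both sides of its control values (log2FC -0.12, interval -0.45 to 0.21). A test of siAHR-5 against siAHR-2, chosen after these values were seen, called 2.18% of all genes and 2 members, Akr1c14 at -0.74 (adjusted p = 0.00784) and Aldh4a1 at -0.75 (adjusted p = 6.52e-05). The share of members, 2 of 98, is near that of all genes, and the choice of this test after the fact makes it a description. Aldh4a1 was at 13.58, 13.52 and 13.55 with siAHR-2 and at 12.78, 12.84 and 12.77 with siAHR-5, on either side of the controls at 13.35, 13.38 and 13.25.

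**Figure D5:**
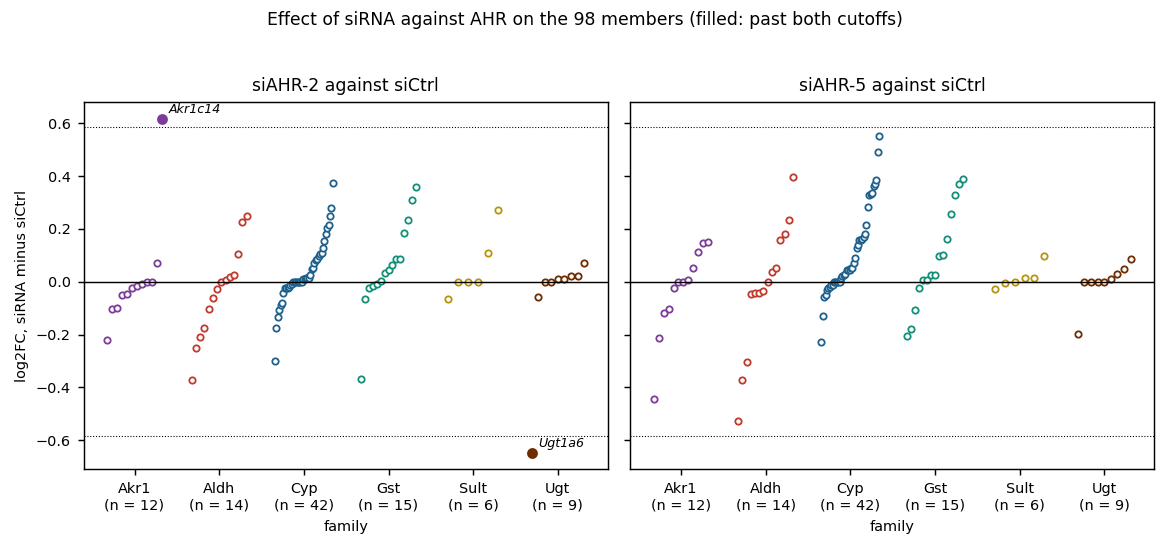
The log2FC of siRNA minus siCtrl (y axis) for all 98 members by family (x axis), siAHR-2 on the left and siAHR-5 on the right, filled where called, with dotted lines at the fold cutoff. Most members lie within 0.4 of 0, and only Akr1c14 (0.62) and Ugt1a6 (-0.65), both with siAHR-2, pass.

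Below the fold cutoff, several abundant members had small differences with each siRNA, given here side by side as the comparisons share controls. Cyp26b1 was at 12.30, 12.27 and 12.34 in siCtrl, at 12.68, 12.69 and 12.66 with siAHR-2 and at 12.64, 12.69 and 12.67 with siAHR-5 (log2FC 0.38 and 0.36, adjusted p = 0.000681 and 0.00065). Both siRNA groups lay above every control and well below the 14.01 to 14.05 of cells without MYC. Aldh9a1 was at 14.59, 14.63 and 14.67 in siCtrl and at 14.22 to 14.31 in all siAHR libraries (log2FC -0.37 and -0.37). Aldh7a1 had -0.21 and -0.31, Gstt2 0.24 and 0.37, and Gstp1 0.36 and 0.16. The abundant Akr1a1 was at 16.48, 16.48 and 16.49 with siAHR-2, within the spread of its controls at 16.47, 16.50 and 16.62, and lower, at 16.09, 16.10 and 16.07, with siAHR-5 (log2FC -0.45, adjusted p = 0.000984). Aldh2, the abundant Aldh gene that rose with MYC, had 0.03 (interval -0.02 to 0.07) and -0.04 (interval -0.12 to 0.03). The largest difference with siAHR-5 short of a call was 0.55 for Cyp4v3, named after its value was seen, and it passed the cutoffs at 0.59 and 0.60 without siAHR-5 replicate 3 or siCtrl replicate 1.

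Around the members stands a wider set of drug metabolism genes, listed for their roles (57 of 61 were in the table). The counts with MYC were 11 higher and 9 lower (35.1%) for the smaller set and 12 higher and 9 lower (36.8%) for the larger set, against 26.8% and 25.5% of all genes, with medians of -0.00087 and -0.014. Of the oxidoreductases, Adh1, the alcohol dehydrogenase that feeds Aldh2 with acetaldehyde, rose by 4.44 and 2.59, Adh7 by 1.54 and 1.13, the aldehyde oxidase Aox1 by 1.58 and 1.10, Nqo1, which reduces quinones, by 1.29 and 1.80, and Nqo2 by 0.66 and 0.64. In the smaller set Cbr4 also rose (0.75) and Fmo2 and the esterase Ces2c fell (-0.97 and -1.69), and in the larger set Fmo1 rose (0.87) and Xdh fell (-0.93). Ephx1, the microsomal epoxide hydrolase, was called in both sets with opposite signs (-1.62 and 0.81).

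The other calls of this wider set went both ways. Ugdh, which makes the UDP-glucuronic acid that Ugt enzymes use, fell by 0.89 and 1.08, the methyltransferases Nnmt (1.66 and 1.93) and Tpmt (0.77 and 0.91) and the microsomal Mgst2 (0.86 and 0.81) fell in both sets, its relative Mgst1 rose by 0.89 in the smaller set (0.06 in the larger set), and Ugp2, one step before Ugdh, fell by 0.99 in the larger set. Among exporters, Abcc3 rose by 0.62 and 1.27 and Abcb1a by 1.02 in the larger set. Of the regulators, Arnt and Ahrr rose in both sets (0.63 and 0.70, and 0.65 and 0.90), Ahr rose by 1.40 in the larger set (0.52 in the smaller set), Arnt2 fell by 3.57 and 3.58, Ppara fell by 0.89 and 0.77, and Rxra fell by 0.59 in the larger set. With siAHR-2, 3 of the 57 (5.26%, against 0.470% of all genes) fell (Ahr itself, Ahrr at -0.80 and Adh7 at -0.60) and 0 rose. With siAHR-5, 5 (8.77%, against 2.32%) fell (Ahr, Ahrr at -1.19, Nqo1 at -0.72, Nqo2 at -0.72 and Adh7 at -0.65) and 0 rose. Both counts include Ahr, the target of the siRNAs, and the list was chosen with earlier results known, so these shares are a description only.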

How the data were processed

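RNA from 18 libraries of rat HO15.19 fibroblasts was sequenced after poly(A) selection. Per the paper's methods and the submitters' processing notes, the authors aligned reads with HISAT2 2.1.0 to rn6, removed genes with few reads and normalized with DESeq2, and the read counter is not given in the sources used here. The deposited table holds log2 values, named log CPM, whose linear sums differ between libraries, so they are not CPM on a common total. Differences are therefore on the deposited log2 scale. Depth is unknown, and no count test was possible. Every value column had a sample, and no pair of libraries was identical.

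limma 3.58.1 (lmFit, eBayes with trend) in R 4.3.3 was run on all 13188 genes, with Benjamini-Hochberg adjustment over all of them. Cutoffs were those stated in the paper's results, a log2FC of 1.5-fold size and an adjusted p of 0.01. The paper's methods also name an FDR under 0.05. The test was checked on simulated data. The difference of MYC effects was a contrast over 4 groups. The members and lists were chosen with earlier results of these data known. Members named were those past the cutoffs in any comparison or for the difference, and the 2 highest of each family by the mean over all libraries. Cyp4v3 and the siAHR-5 against siAHR-2 test were added after values were seen. Neighbour order and promoters came from RefSeq (GRCr8), used for names, order and sequence only, since the reads were aligned to rn6; neighbours had at most 5 genes between them. Alternatives were other scalings, a filter at a mean of 5, a pseudocount of 1, one fit of all libraries, no trend, a replicate block, a looser cutoff and leaving out each library.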

Additional observations from a re-analysis of the deposited data

Results flagged for a closer look

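The effect of MYC on 27 members differed between the smaller set and the larger set by a limma contrast over the 4 groups, at the cutoffs used throughout. Each value is the log2FC in the larger set minus that in the smaller set. The siCtrl label changes sides between the sets, and this and the separate normalization of the sets cannot be told apart from the difference.

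The value was above 0 for 13 members. Where the smaller set showed a fall that was smaller or not called in the larger set, it was 3.35 for Aldh1l1, 2.56 for Cyp4b1, 1.59 for Gsta1, 1.00 for Ugt1a7c, 0.99 for Ugt1a6, 0.93 for Cyp26b1, 0.83 for Cyp27a1, 0.78 for Akr1b8 and 0.69 for Cyp19a1. For Cyp4b1, Ugt1a7c and Cyp27a1 this gives back little beyond the fall in the smaller set, since in the larger set they sat within 0.01 of their lowest value in 10, 7 and 3 of 12 libraries and Cyp27a1 was at 4.22 to 4.30 in both groups. The same limit bears on Gsta1, which was at 5.35 to 5.63 in all 12 libraries, near its lowest value of 5.35. The Cyp4b1 fall itself ended within 0.01 of the gene's lowest value in the smaller set. For Aldh4a1 (1.07) and Cyp39a1 (0.68) a rise was called in the larger set alone. Cyp3a9 (0.72) and Aldh9a1 (0.59) were called in neither set, and the difference for Aldh9a1 was no longer called after quantile normalization.

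The value was below 0 for 14 members. Falls were larger in the larger set for Akr1c13 (-1.61), Ugt1a2 (-1.32), Akr1c12 (-1.28) and Aldh3b1 (-0.71), and were called there alone for Gstm2 (-1.23), Cyp2b1 (-1.05) and Gstp1 (-0.65). The difference was no longer called for Aldh3b1 after quantile normalization or for Gstp1 after median centring. Rises were smaller in the larger set for Aldh6a1 (-1.56), Akr1c14 (-1.05), Akr1c19 (-0.71) and Gsta4 (-0.71), and were called in the smaller set alone for Sult1a1 (-0.91), Cyp2d4 (-0.84) and Gstt1 (-0.67). Without MYC, Cyp2d4 was at 4.97 to 5.01 in the larger set, at or near its lowest value of 4.97.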

How the results depend on the processing

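Calls with MYC numbered 36 to 39 in the smaller set and 27 to 31 in the larger under the other scalings, the filter, the pseudocount, the fit of all libraries and the fit without trend. Without a fold cutoff and at an adjusted p of 0.05, members called were 73 in the smaller set, 53 in the larger set, 19 with siAHR-2, 27 with siAHR-5 and 51 for the difference (74.5%, 54.1%, 19.4%, 27.6% and 52%), each a lower share than that of all genes (76.2%, 64.7%, 29.3%, 39.2% and 54.9%). Leaving out each library in turn gave 36 to 39, 26 to 28, 1 to 2, 0 to 1 and 25 to 28, and the call lost with siAHR-2 was Ugt1a6, without siAHR-2 replicate 2. Quantile normalization left 1 call with siAHR-2, and median centring gave 1 with siAHR-5 (Aldh4a1 at -0.59). Scalings moved the median of all genes by under 0.1.

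Values near 0 changed sign. After quantile normalization, Akr1a1 was at 0.15 and Gstp1 at 0.22 in the smaller set, and Akr1a1 at 0.0413, Akr1b1 at 0.05705, Cyp19a1 at 0.17, Gsto1 at 0.0206 and Sult1a1 at 0.12 in the larger set. Median centring put Cyp4b1 at 0.0263 in the larger set. With a library left out, ranges were -0.0347 to 0.0209 for Akr1a1 and -0.0382 to 0.0274 for Gstp1 in the smaller set, -0.11 to 0.0031 for Akr1b1 and -0.14 to 0.0125 for Cyp19a1 in the larger set, and -0.24 to 0.0117 for Akr1c14 with siAHR-5. Calls for the difference lost under a scaling were Aldh3b1 (-0.17) and Aldh9a1 (0.52) after quantile normalization and Gstp1 (-0.56) after median centring. This call was also lost for Aldh9a1 (to 0.56) without any one of myc-/- replicate 2, myc-/- + MYC replicates 1 and 3, myc-/- + MYC siCtrl replicate 3 and myc-/- siCtrl replicate 3, for Gstp1 (-0.57) without myc-/- replicate 2, and for Gstt1 (-0.58 and -0.57) without replicate 1 of myc-/- + MYC or of myc-/- + MYC siCtrl. The cause was not tested.

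Same-numbered libraries were not shown to pair: correlations of their deviations ran from -0.26 to 0.24 and were not all above 0.1 in any comparison. With the replicate number as a block, limma called 0 members with siAHR-2, and Akr1c14 and Ugt1a6 had adjusted p = 0.0148 and 0.0139. Over all genes the block called 0 genes against 62, with 5030 genes at an unadjusted p under 0.05 and a smallest adjusted p of 0.0126. Member counts stayed at 38, 27, 0 and 27 elsewhere.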

Other observations

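Promoter letters were counted by direction of the calls, as a description only. GCGTG on either strand was found in 1 of 13 members that were higher with MYC in the smaller set and in 7 of 17 that were lower, and in 2 of 10 and 8 of 15 in the larger set, where 29.7% of all promoters hold it. TGACNNNGC was found in 2 of 13 and 3 of 17 in the smaller set and in 1 of 10 and 2 of 15 in the larger set, and CACGTG in 0 of 13 and 1 of 17 and in 0 of 10 and 1 of 15. Members of 1 cluster share sequence and are not independent.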
